A study of Homo sapiens with 4 samples.

Results

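The miRNAs hsa-miR-192-5p, hsa-miR-194-5p and hsa-miR-215-5p come from 2 small gene clusters, and they were examined here in extracellular vesicles (EVs) of MDA-MB-231 cells. They are 3 of the 539 mature miRNAs that both tables of the series list. The members were chosen by cluster membership, with their read counts in all 4 libraries already known, so the comparison between the media is given as a description, with no p-value for a member. MDA-MB-231 is an established human triple-negative breast cancer line, and all cells carried the wild-type genotype of the line. The group 231 EV came from cells held for 12 h in medium depleted of EVs, whereas 231 -G EV came from cells held equally long in medium lacking glucose. The labels do not say whether the latter was also depleted of serum EVs, and the cells had been grown in fetal bovine serum before. Each group had 2 libraries, numbered 1 and 2. The number also marked the library chemistry: replicate 1 used RNA freed of interfering modifications, and replicate 2 used a NEBNext kit. Same-numbered libraries are called pair 1 and pair 2.

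A miRNA cluster is transcribed as 1 primary transcript, from which each hairpin is cut separately, so its partners share a promoter but not every later step of maturation. The cluster of miR-192 and miR-194-2 and the cluster of miR-215 and miR-194-1 are known for high expression in liver, intestine and kidney, where HNF1 factors drive them, and as genes that wild-type p53 induces. Bases 2 to 8 of a mature miRNA, the seed, carry most of its target recognition, and miRNAs with the same seed share most predicted targets.

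The mature sequences are shown because a pair of them is almost the same molecule. Capitals mark the seed.
hsa-miR-192-5p: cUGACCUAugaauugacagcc
hsa-miR-215-5p: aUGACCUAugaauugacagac
hsa-miR-194-5p: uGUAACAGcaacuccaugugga

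Hsa-miR-192-5p and hsa-miR-215-5p had the seed UGACCUA in common, and among 2370 mature human miRNAs in the RefSeq table no other carried it. The seed GUAACAG was that of hsa-miR-194-5p alone. Hsa-miR-192-5p and hsa-miR-215-5p matched at 19 of 21 positions. Counted from 1 at the 5′ end, and with the base of hsa-miR-192-5p first, they differed by C1A and C20A. Between these lay an identical run of 18 bases, ugaccuaugaauugacag, from position 2 to 19. A read trimmed to that run matches both miRNAs equally, and how the counting assigned such reads was not stated in the sources used here.

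The hairpins of miR-194 are shown because the clusters meet in them. Capitals mark hsa-miR-194-5p.
MIR194-2: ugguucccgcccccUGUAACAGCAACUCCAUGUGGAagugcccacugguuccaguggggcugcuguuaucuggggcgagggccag
MIR194-1: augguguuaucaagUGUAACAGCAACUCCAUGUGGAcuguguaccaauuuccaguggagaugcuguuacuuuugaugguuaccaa

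The mature 5p arm was the same in both hairpins, so a read of hsa-miR-194-5p could not be given to either cluster. The hairpins are those of RefSeq on GRCh38.p14, and the submitters' processing notes name hg38, which is the same assembly. MIR192 lies at chr11:64891137-64891246 and MIR194-2 at chr11:64891355-64891439, both on the minus strand with 108 bases between them. In GENCODE both fall in exon 2 of the long non-coding host gene MIR194-2HG on the same strand. MIR215 lies at chr1:220117853-220117962 and MIR194-1 at chr1:220118157-220118241, again on the minus strand, with 194 bases between them. Both lie within IARS2, a mitochondrial isoleucyl-tRNA synthetase gene on the opposite strand, outside every annotated exon.

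Library totals ran from 15597 to 18397 reads in replicate 1 and from 170894 to 224966 in replicate 2. CPM values are reads per 1000000 reads of their library, and 1 read was worth 54.4 to 64.1 CPM in replicate 1 but 4.45 to 5.85 CPM in replicate 2. A single miRNA, hsa-miR-182-5p, filled 51.0% of 231 EV replicate 1 and 2.73% of 231 -G EV replicate 1, which lowers the CPM of every other miRNA in the first of these libraries. Ratios in pair 1 are therefore also given with this miRNA left out of the totals and with TMM scaling. As a check on the label, all 6 miRNAs listed as typical of MDA-MB-231, hsa-miR-21-5p among them, had reads in all 4 libraries, although hsa-miR-31-5p had only 1 to 4, and in replicate 1 hsa-miR-222-3p had 7 and 4 and hsa-miR-221-3p 11 and 6. Their summed level was 21634 and 31096 CPM in replicate 1 but 405941 and 379832 CPM in replicate 2, whereas 8 blood cell miRNAs summed to 200794 and 429506 CPM in replicate 1.

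Hsa-miR-192-5p was the most abundant of the 3 in every library except 231 -G EV replicate 1. Pair 1 gave 21 reads in 231 EV and 55 reads in 231 -G EV, and 348 and 230 reads in pair 2. These reads amount to 1141 CPM (95% Wilson interval 747 to 1745) and 3526 CPM (2710 to 4587) in pair 1, against 1547 CPM (1393 to 1718) and 1346 CPM (1183 to 1531) in pair 2. By library totals, 231 -G EV replicate 1 stood above the rest and the other libraries lay close together. With hsa-miR-182-5p left out, the levels in 231 EV and 231 -G EV were 2329 and 3625 CPM in pair 1. In pair 2 they were 1551 and 1349 CPM, so 231 EV replicate 1 then lay above both libraries of replicate 2. Hsa-miR-192-5p ranked 32nd among the miRNAs of 231 -G EV replicate 1 and 47th, 58th and 66th in 231 EV replicate 1, 231 EV replicate 2 and 231 -G EV replicate 2.

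Hsa-miR-194-5p, the partner of both other miRNAs, was lower than hsa-miR-192-5p in every library. Pair 1 gave 6 reads for 231 EV and 9 for 231 -G EV, or 326 CPM (149 to 711) and 577 CPM (304 to 1096). In pair 2 it had 94 and 49 reads, or 418 CPM (341 to 511) and 287 CPM (217 to 379). The intervals of the 2 libraries of pair 1 overlapped widely, and those of pair 2 overlapped at their ends.

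Hsa-miR-215-5p had another pattern than its partner and its near-twin. It had 1 read in 231 EV replicate 1 and 145 reads in 231 -G EV replicate 1, or 54.4 CPM (9.60 to 308) and 9297 CPM (7907 to 10928). In replicate 2 it had 8 reads in each medium, or 35.6 CPM (18 to 70.2) in 231 EV and 46.8 CPM (23.7 to 92.4) in 231 -G EV. A single library was high and the other 3 were low, with overlapping intervals among those 3. In 231 -G EV replicate 1 it took 0.930% of all reads and ranked 15th, against ranks from 226 to 269 in the others.

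**Figure D1:**
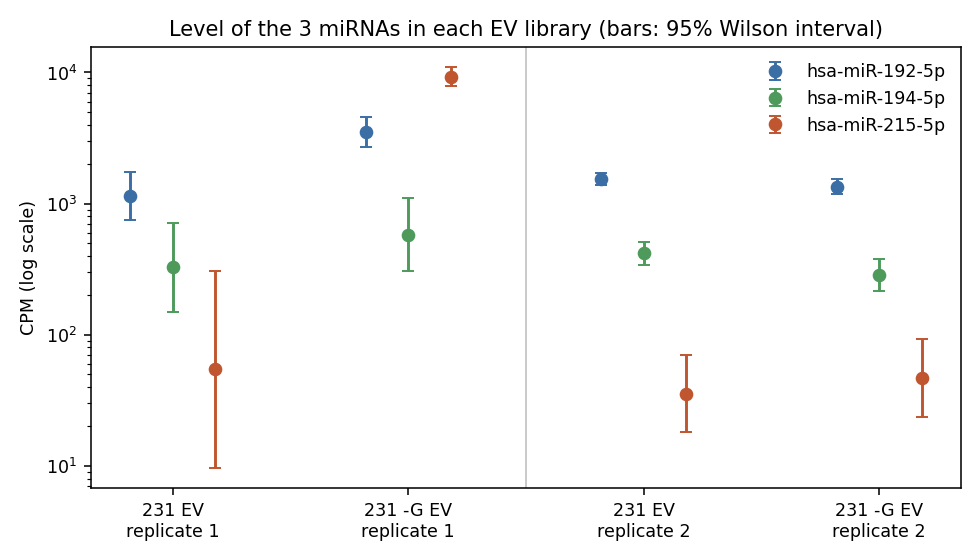
CPM of the 3 miRNAs on a log scale in each of the 4 EV libraries, with 95% Wilson intervals that cover counting error only. Hsa-miR-215-5p sat at 9297 CPM in 231 -G EV replicate 1 and between 35.6 and 54.4 CPM in the other libraries.

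The passenger arms were scarce. Hsa-miR-192-3p had 1 and 2 reads in the 231 EV libraries of replicates 1 and 2 and 0 reads in both 231 -G EV libraries. Hsa-miR-194-3p was listed for replicate 2 alone, with 0 reads in both of its libraries, which by the limit of 3 reads for a count of 0 allows up to 13.3 CPM in 231 EV and 17.6 CPM in 231 -G EV. Hsa-miR-215-3p was listed for neither replicate, so the 5p reads had no counterpart arm to be set beside.

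Make-up within the group gives a view that does not depend on library totals. Of the reads of the 3 miRNAs together, hsa-miR-192-5p held 75% and 77.3% in 231 EV of replicates 1 and 2 and 80.1% in 231 -G EV replicate 2. In 231 -G EV replicate 1 its share was 26.3%, and hsa-miR-215-5p held 69.4%. Within the seed family, the share of hsa-miR-215-5p was 4.55% of 22 reads (95% exact interval 0.115 to 22.8) in 231 EV replicate 1 and 72.5% of 200 reads (65.8 to 78.6) in 231 -G EV replicate 1. The same share was 2.25% of 356 reads (0.975 to 4.38) and 3.36% of 238 reads (1.46 to 6.52) in replicate 2. The 3 low shares had overlapping intervals, and the fourth lay far above all of them. Reads of hsa-miR-192-5p per read of hsa-miR-194-5p were 3.50, 6.11, 3.70 and 4.69 in the same order, a far narrower range.

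**Figure D2:**
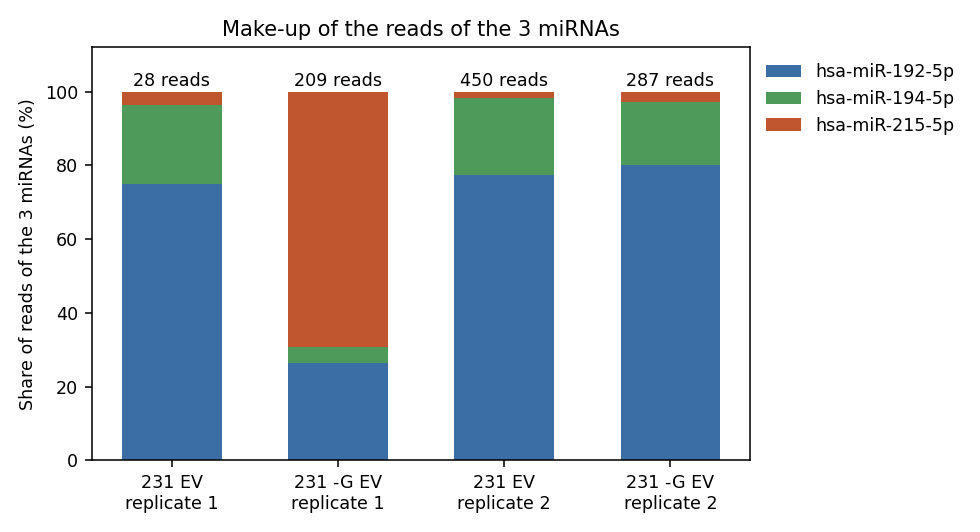
Share of the summed reads of the 3 miRNAs that each one took, per library, with the number of reads above each bar. Hsa-miR-192-5p held 75% to 80.1% in 3 libraries and 26.3% in 231 -G EV replicate 1, where hsa-miR-215-5p held 69.4%.

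To describe how the miRNAs differed between the media, 231 -G EV was set against 231 EV within each pair. In pair 1 the ratio of hsa-miR-192-5p was 3.09 with a 95% exact interval of 1.84 to 5.38. Once hsa-miR-182-5p was taken out of the totals it was 1.56 (0.926 to 2.71), with an interval that reached 1, and TMM scaling gave 1.72. In pair 2 the ratio was 0.870 (0.733 to 1.03). The direction was therefore opposite in the pairs under each of these 3 scalings, and the interval of pair 2 reached 1.

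For hsa-miR-194-5p the ratio in pair 1 was 1.77 (0.562 to 6.04) by library totals. The direction turned with the scaling, to 0.892 (0.283 to 3.04) with hsa-miR-182-5p removed and 0.985 with TMM, and 6 and 9 reads are too few to show a difference of this size. In pair 2 the ratio was 0.686 (0.476 to 0.979), or 1.46-fold lower with an interval of 1.02 to 2.10, and it stayed below 1 with TMM scaling at 0.646.

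For hsa-miR-215-5p the ratio in pair 1 was 171, with an interval of 30.2 to 6801 since the lower library held 1 read. Totals that omit hsa-miR-182-5p gave 86.2 (15.2 to 3428), and TMM scaling gave 95.2. In pair 2 the ratio was 1.32 (0.431 to 4.02), whose interval lay wholly below that of pair 1. The size of the difference thus came from 1 library of 1 chemistry.

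**Figure D3:**
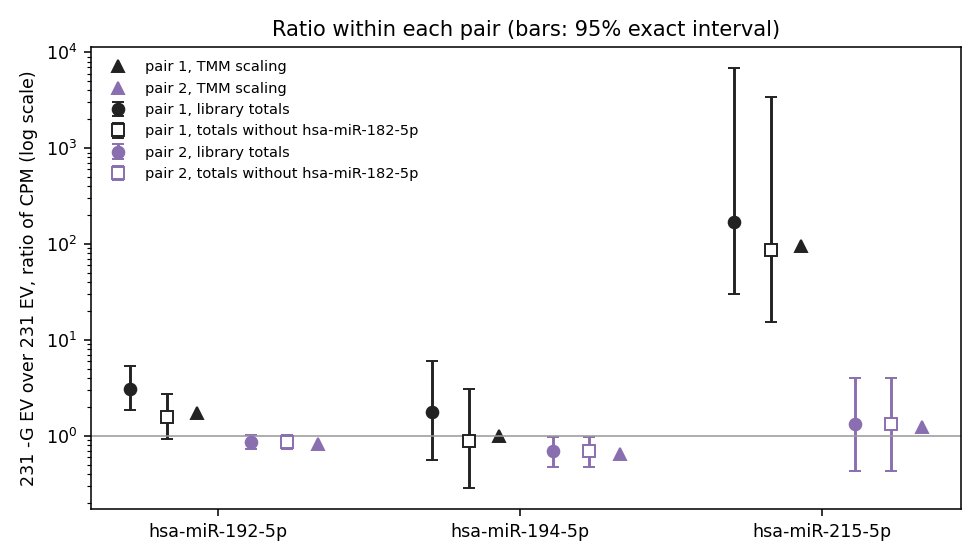
Ratio of CPM, 231 -G EV over 231 EV, on a log scale for each miRNA and pair under 3 scalings, with 95% exact intervals for those that rest on read totals and the line at a ratio of 1. In pair 1 hsa-miR-215-5p lay between 86.2 and 171, whereas hsa-miR-194-5p ran from 0.892 to 1.77 with the scaling.

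Set beside the other miRNAs, hsa-miR-192-5p and hsa-miR-194-5p lay within the bulk of the folds in both pairs. With 1 CPM added to each level, 3 of 3 members were more than 1.5-fold higher in pair 1, where 33.8% of the 539 miRNAs were, and 0 of 3 were as much lower, where 18.7% were. Many of the 539 had few or no reads, and among the 104 with at least 10 reads over both libraries of pair 1, 64.4% were more than 1.5-fold higher and 8.65% as much lower. Hsa-miR-215-5p is among the 104 only through its 145 reads in 231 -G EV. The count of 3 holds by library totals alone, since the ratio of hsa-miR-194-5p was below 1 under both other scalings. In pair 2, 0 of 3 passed in either direction, against 21.7% higher and 28.9% lower among all. Among these 104 miRNAs the median log2 fold was 0.96 and 82.7% were higher. That median was -0.03 with hsa-miR-182-5p omitted from the totals and 0.12 with TMM scaling. The log2 folds of hsa-miR-192-5p, 1.63, and hsa-miR-194-5p, 0.82, lay on either side of that median, and 29 and 57 of these miRNAs had a larger fold. No rank is given for hsa-miR-215-5p, because with 1 read in 231 EV its place among miRNAs with 0 reads there depends on the amount added. In pair 2, where the median over 247 miRNAs was -0.03, the log2 folds were -0.20 for hsa-miR-192-5p, -0.54 for hsa-miR-194-5p and 0.39 for hsa-miR-215-5p.

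Across both pairs, edgeR with the replicate number as a block gave log2 folds of 0.67 (SE 0.97) for hsa-miR-192-5p, 0.03 (SE 1.12) for hsa-miR-194-5p and 3.44 (SE 1.34) for hsa-miR-215-5p. The median over the 384 miRNAs tested was 0.20. With TMM scaling the median was -0.14 and the folds were 0.21, -0.39 and 2.97, so that of hsa-miR-194-5p changed sign. A call needed an adjusted p below 0.05 together with a log2 fold beyond 1 in either direction, and edgeR called 0% of all miRNAs tested, from which nothing is read about the members. EdgeR gave 5 miRNAs with an unadjusted p under 0.05, and DESeq2 called 0 with 6 at that unadjusted level.

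Whether cluster partners changed together was read from the quotient of their ratios of 231 -G EV over 231 EV, in which library totals cancel and which is 1 where both changed alike. The ratio of hsa-miR-192-5p divided by that of hsa-miR-194-5p was 1.75 in pair 1 (95% exact interval 0.450 to 6.27) and 1.27 in pair 2 (0.851 to 1.90), where both ratios were below 1. Both intervals held 1, and both allow a difference of some size. The ratio of hsa-miR-215-5p divided by that of hsa-miR-194-5p was 96.7 in pair 1 (9.41 to 4472) and 1.92 in pair 2 (0.586 to 6.24), where the former was above 1 and the latter below it. Against hsa-miR-192-5p, its relative in seed but not in locus, the quotient was 55.4 (8.36 to 2305) in pair 1 and 1.51 (0.487 to 4.69) in pair 2. In pair 2 the intervals of all 3 quotients held 1, so no departure beyond counting error was seen. They reach up to 6.24, so a difference of several-fold could have been missed. In pair 1 the same holds for hsa-miR-192-5p and hsa-miR-194-5p, with an interval up to 6.27, and hsa-miR-215-5p parted from both.

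These differences were set beside those of other annotated cluster partners, meaning mature miRNAs of different hairpins on 1 strand within 10 kb. With at least 10 reads required in each library, 75 other partner combinations of 66 miRNAs could be formed in pair 2, many of which share a miRNA. Their absolute difference in log2 fold had a median of 0.47 and ran from 0.012, for hsa-miR-19a-3p and hsa-miR-20a-5p, to 1.87, for hsa-let-7d-3p and hsa-let-7f-5p. It was 0.34 for hsa-miR-192-5p and hsa-miR-194-5p, and 42 of the 75 were farther apart. In pair 1 the same rule left 11 other combinations and no members. Requiring 10 reads over both libraries instead, with 0.5 added to each count, gave 25 other combinations there, with a median of 0.69 and a highest value of 4.01, for hsa-miR-182-5p and hsa-miR-96-5p. On that scale hsa-miR-192-5p and hsa-miR-194-5p differed by 0.82, with 11 of the 25 farther apart, and hsa-miR-194-5p and hsa-miR-215-5p by 6.05. With 1 and 145 reads, hsa-miR-215-5p met this requirement only through the library in which it was high, so its place among the others in pair 1 is not read. In pair 2 the latter difference was 0.93, and 33 of 95 other combinations exceeded it.

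**Figure D4:**
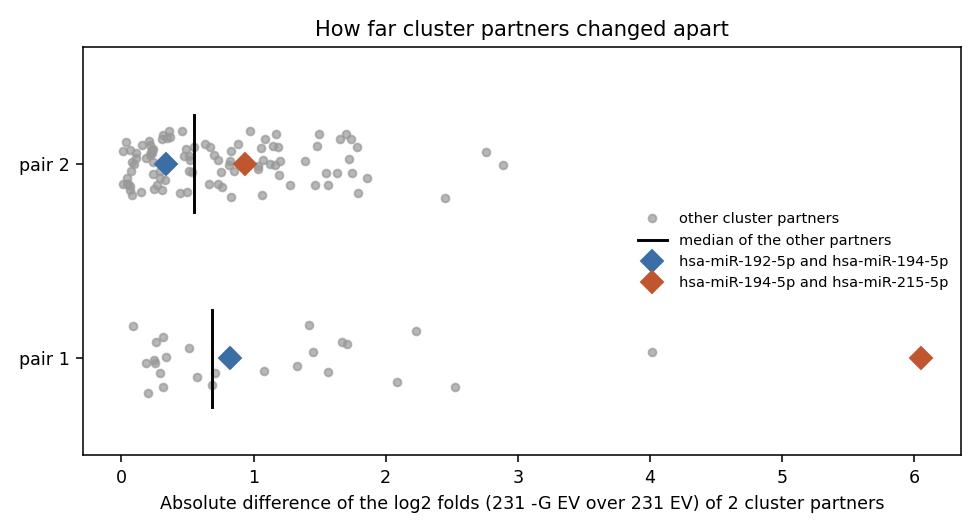
Absolute difference of the log2 folds of 2 partners of a cluster, per pair, for partners with at least 10 reads over both libraries (0.5 added to each count). Grey points are other clusters and black lines their medians, 0.69 in pair 1 and 0.55 in pair 2; hsa-miR-194-5p and hsa-miR-215-5p stood at 6.05 in pair 1, where hsa-miR-215-5p was included only through its 145 reads in 231 -G EV, and at 0.93 in pair 2.

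The levels were also compared between the library chemistries, as a description with no p-value, since the same 4 counts were known when the members were chosen. Within 231 EV, the level in replicate 2 over that in replicate 1 was 1.36 (95% exact interval 0.873 to 2.22) for hsa-miR-192-5p, 1.28 (0.567 to 3.58) for hsa-miR-194-5p and 0.654 (0.0877 to 29) for hsa-miR-215-5p, and all 3 intervals included 1. These ratios use library totals. With hsa-miR-182-5p left out, replicates 1 and 2 of 231 EV held 2329 and 1551 CPM of hsa-miR-192-5p. They held 665 and 419 CPM of hsa-miR-194-5p, so the direction of both miRNAs turned with the scaling. Within 231 -G EV the ratios were 0.382 (0.283 to 0.522), 0.497 (0.242 to 1.15) and 0.00504 (0.00213 to 0.0102). Over both media, edgeR's log2 difference was -0.49 (SE 0.97) for hsa-miR-192-5p and -0.34 (SE 1.12) for hsa-miR-194-5p. Both values fell to the other side of 0 without 231 -G EV replicate 1, at 0.34 and 0.11. With hsa-miR-182-5p omitted from the totals they were -1.02 and -0.86, and with TMM scaling -0.32 and -0.16. For hsa-miR-215-5p the log2 difference by library totals was -4.96 (SE 1.5), which rests on 231 -G EV replicate 1, and without that library it was -0.40 (SE 1.64). Of all miRNAs tested, edgeR called 7.55% lower in replicate 2 and 17.2% in either direction, from which nothing is read about the members. Chemistry and any other difference between replicates 1 and 2 cannot be told apart.

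The ratio of hsa-miR-192-5p to hsa-miR-194-5p was also compared between the chemistries. Replicate 2 over replicate 1, it was 1.06 (95% exact interval 0.339 to 2.81) in 231 EV and 0.768 (0.313 to 1.71) in 231 -G EV, and both intervals include 1 but are wide. The ratio of hsa-miR-215-5p to hsa-miR-194-5p was 0.511 (0.0511 to 26.4) in 231 EV, with 1 read behind it in replicate 1, and 0.0101 (0.00325 to 0.0303) in 231 -G EV.

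The miRNAs with the most similar patterns differed between the members. Likeness was the Euclidean distance between log2(CPM + 1) values over the 4 libraries, each centred on its own mean, among 271 other miRNAs. These had at least 10 reads in total and reads in at least 2 libraries. Nearest to hsa-miR-192-5p were hsa-miR-146b-5p (distance 0.38), hsa-miR-7-5p (0.44), hsa-miR-423-3p (0.50), hsa-miR-145-5p (0.58) and hsa-miR-10a-5p (0.62), and hsa-miR-194-5p came sixth at 0.64. Nearest to hsa-miR-194-5p were hsa-miR-181a-5p (0.23), hsa-let-7f-5p (0.31), hsa-miR-146b-5p (0.36), hsa-miR-146a-5p (0.45) and hsa-miR-379-5p (0.46), and hsa-miR-192-5p came ninth. The median distance was 4.98 for the first and 4.95 for the second, so these partners lay close to each other. Nearest to hsa-miR-215-5p were hsa-miR-1-3p (1.94), hsa-miR-133a-3p (2.48), hsa-miR-3158-3p (2.92), hsa-miR-200a-3p (3.20) and hsa-miR-148a-3p (3.32), with a median distance of 8.01. Hsa-miR-192-5p and hsa-miR-194-5p came 38th and 55th there. Hsa-miR-133a-3p and hsa-miR-3158-3p each had 0 and 9 reads in pair 1, and 1 and 0 or 1 and 2 in pair 2. They met the minimum of 10 reads only through 231 -G EV replicate 1. With 0 reads in 231 EV replicate 1, their places depend on the 1 CPM added and are not read. Hsa-miR-1-3p, a muscle miRNA, had 3 and 122 reads in pair 1 and 14 and 4 in pair 2. These distances rest on 4 libraries and are a description.

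Because the clusters are active in liver and gut, markers of other tissues were set beside them. Of the liver list, hsa-miR-122-5p, the dominant hepatocyte miRNA, was the 1 of 3 listed members with reads in all 4 libraries, and hsa-miR-885-5p had 0 in all. Hsa-miR-122-5p had 17 and 48 reads in pair 1, 3.33-fold higher in 231 -G EV, and 298 and 90 reads in pair 2, where the fold was 0.398. Omitting hsa-miR-182-5p from the totals brought its fold in pair 1 to 1.68, and TMM scaling brought it to 1.85. It was thus higher in pair 1 and lower in pair 2 under each of these scalings, which held for 1 of the 3 liver miRNAs, since hsa-miR-483-3p had 0 and 2 reads in pair 1 and 1 read in each library of pair 2. The summed level of the 3 liver miRNAs was 924 and 3206 CPM in pair 1 and 1329 and 532 CPM in pair 2.

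Blood cell markers summed to 200794 and 429506 CPM in pair 1, most of it hsa-miR-451a of red cells, and to 10735 and 4716 CPM in pair 2. In pair 2, 8 of 8 were lower in 231 -G EV, with a median log2 fold of -1.33, and in pair 1, 6 of 8 were higher by library totals but 4 of 8 once hsa-miR-182-5p was omitted or TMM scaling was used. Among all 104 miRNAs with at least 10 reads in pair 1, 82.7% were higher by library totals. That was 50 of 104 with hsa-miR-182-5p omitted and 57 of 104 with TMM scaling. In pair 2, 48.6% of the 247 miRNAs with at least 10 reads were higher. Of 7 epithelial markers, 5 were higher in pair 1 and 6 were lower in pair 2 under all 3 scalings. Their summed level was 1141 and 6540 CPM in pair 1 and 396 and 199 CPM in pair 2. The epithelial marker hsa-miR-200b-3p had 9 and 42 reads in pair 1 and 7 and 3 reads in pair 2. The part of these lists in the levels of the 3 miRNAs was not tested.

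Of the p53-responsive list, which shares a known regulator with the members, 7 miRNAs were listed in both tables. The state of p53 in these cells was not measured here. In pair 1, 2 of these 7 miRNAs were more than 1.5-fold higher and 2 were as much lower, and in pair 2, 1 was higher and 3 were lower. Over all 539 miRNAs, 33.8% were as much higher and 18.7% lower in pair 1, and 21.7% and 28.9% in pair 2. Nothing is read from these counts. The median log2 folds of the 7 were -0.18 and -0.09, and that of pair 1 was -1.16 with hsa-miR-182-5p omitted and -1.02 with TMM scaling. Hsa-miR-34a-5p, the best known p53 target among miRNAs, had 4 and 3 reads in pair 1 and 45 and 32 reads in pair 2, with folds of 0.885 and 0.936. Hsa-miR-145-5p, whose processing p53 is known to promote, had 1 and 4 reads in pair 1 and 22 and 10 reads in pair 2.

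**Figure D5:**
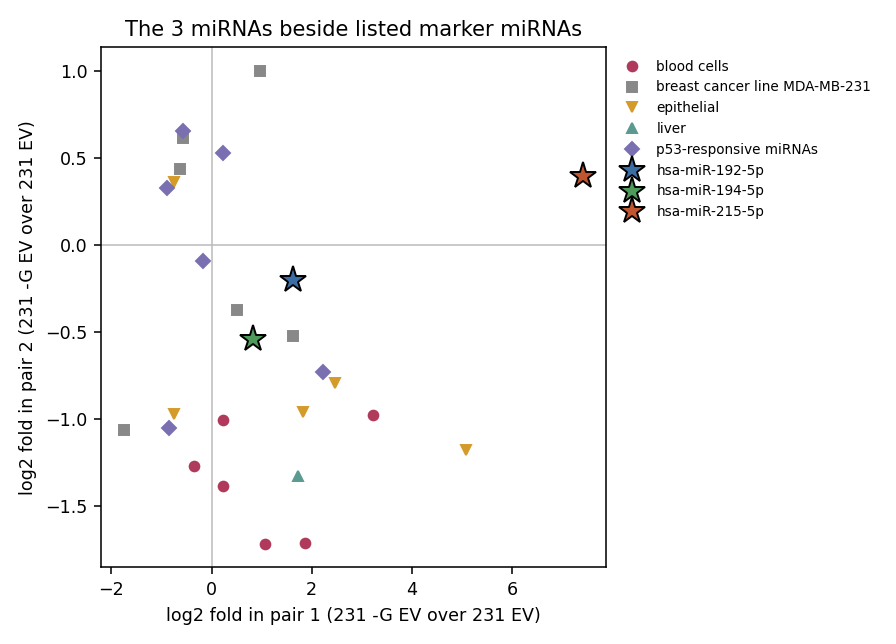
Log2 fold, 231 -G EV over 231 EV, in pair 1 (horizontal) against pair 2 (vertical) by library totals, for the 3 miRNAs (stars) and for listed miRNAs with reads in all 4 libraries. Hsa-miR-192-5p (1.63 and -0.20) and hsa-miR-194-5p (0.82 and -0.54) fell in 1 quadrant, higher in pair 1 and lower in pair 2. That quadrant also held hsa-miR-122-5p (1.73 and -1.33) of the liver list and hsa-miR-100-5p (1.64 and -0.52) of the MDA-MB-231 list. Drawn or not, 12 of 18 liver, blood cell and epithelial miRNAs, 2 of 6 of MDA-MB-231 and 2 of 7 p53-responsive ones had these directions. Hsa-miR-215-5p (7.42 and 0.40) lay far to the right.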

How the data were processed

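The labels name no separate cultures, so p-values measure the spread between these libraries, which may be technical. The authors deposited whole-number read counts per mature miRNA in a pair of tables, with CPM beside the counts of replicate 1 and TPM beside those of replicate 2. The deposited CPM and TPM both equalled reads per 1000000 of the library's total, to within 4.96e-05, with no length term. For the NEBNext libraries the study's methods describe trimming, removal of other RNA classes and a search of miRBase. The steps used for replicate 1 were not given in the sources used here. The submitters' processing notes name FastQC, cutadapt, Bowtie, Bowtie2, StringTie, edgeR and hg38 without roles. Intervals were computed with SciPy 1.17.1 and cover counting error only, since reads amplified by PCR and lacking molecular identifiers may repeat a molecule. EdgeR 4.0.16 in R 4.3.3 (quasi-likelihood test, library totals, replicate block, Benjamini-Hochberg over the 384 miRNAs that both tables list and that had reads in 2 or more libraries) was tested on simulated data, where it called few of the changed miRNAs and no unchanged one, and DESeq2 1.42.0 was the alternative. SEs were derived from the fold and its F value. The replicate number pairs libraries that share a chemistry per the labels, and after subtracting group means, libraries with the same number correlated at 0.59. The members and marker lists were chosen with earlier results of these data known. Named miRNAs were the members, their arms, the 5 nearest in pattern to each, listed markers, hsa-miR-182-5p and the extreme cluster partners. Hsa-miR-206 and hsa-miR-449c-5p were named after their values were seen.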

Additional observations from a re-analysis of the deposited data

Results flagged for a closer look

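A pair of results stood out because the 2 library chemistries gave opposite directions for the same contrast. The log2 ratio of hsa-miR-192-5p was 1.63 in pair 1 and -0.20 in pair 2, a difference of 1.83. With hsa-miR-182-5p omitted the value of pair 1 was 0.64, and the interval of that ratio reached 1. That of hsa-miR-194-5p was 0.82 in pair 1 and -0.54 in pair 2, a difference of 1.37. Neither difference was tested, as each direction rests on 1 pair of libraries. Hsa-miR-194-5p was not higher in pair 1 with TMM scaling (ratio 0.985) or with hsa-miR-182-5p omitted (0.892), so opposite directions held for it by library totals alone.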

How the results depend on the processing

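The log2 fold of hsa-miR-192-5p (0.67) ran from -0.20 without replicate 1 to 1.63 without replicate 2, that of hsa-miR-194-5p (0.03) from -0.54 to 0.82, and that of hsa-miR-215-5p (3.44) from 0.40 to 7.42. Without the replicate block they were 0.85, 0.19 and 6.73, and with DESeq2 0.38, -0.19 and 3.23. Under the alternatives run, hsa-miR-215-5p kept its direction in all, hsa-miR-192-5p did in all but the one without replicate 1, and hsa-miR-194-5p turned with TMM scaling (-0.39), with hsa-miR-182-5p omitted (-0.39), with DESeq2 and without replicate 1. Summing hsa-miR-192-5p with hsa-miR-215-5p moved the difference from hsa-miR-194-5p from 0.64 to 1.54, since reads of hsa-miR-215-5p then entered it. Between chemistries, leaving out 1 library each gave -1.28 to 0.34 for hsa-miR-192-5p, -0.71 to 0.11 for hsa-miR-194-5p and -7.80 to -0.40 for hsa-miR-215-5p. Calls between the media went from 0 to 1, hsa-miR-449c-5p, once hsa-miR-182-5p was omitted, and to 1, hsa-miR-206, when miRNAs with reads in only 1 library were admitted, and neither is a member. Calls between chemistries, 66 in all, ran from 26 without 231 -G EV replicate 2 and 27 without 231 EV replicate 2 to 90 without 231 -G EV replicate 1. The cause of these shifts was not tested. At 6 and 9 reads of hsa-miR-194-5p and 1 read of hsa-miR-215-5p, the depth of replicate 1 limits every ratio of pair 1.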
